A study of Homo sapiens with 50 samples.

Results

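The genes described here are 35 targets of hypoxia-inducible factor 1 and enzymes or transporters of glycolysis, followed in human H1299 lung carcinoma cells with inherent or reduced RAD9. They were chosen by name: a gene was taken if its symbol stood beside a probe on the array that was not a control spot, and where a gene had several probes the brightest was used. All 35 names on the list were on the array, of 25940 gene names in all. For 31 of them the probe passed the filter on dim spots, as did at least 1 probe of 15819 gene names, and CA9, NDRG1, ALDOC and EGLN3 did not pass.

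H1299 is a p53-null line from a non-small cell lung carcinoma, and H1299shRAD9 is the same line carrying a retroviral puromycin vector that expresses a short hairpin RNA against RAD9, a DNA damage checkpoint protein. Per the study's methods, H1299shRAD9 stands for 2 stable transfectants used in place of one another, and the labels do not record which of them gave a sample. Cells on Mylar dishes were exposed to 1 Gy of 4He ions (α particles) or sham irradiated, and RNA was taken at 4 h. Each cell line had 5 groups of 5 samples, numbered replicates 1 to 5, and each of the 50 samples was hybridized to its own array. CTL was sham irradiated, DBP and DBN were directly irradiated, and BP and BN were the bystander cells that shared a dish with them. The letters P and N say whether the bystander cells of that dish showed a micronucleus response, so that these groups were selected from a larger number of dishes by their outcome. The untransfected line is the only comparator for H1299shRAD9, so that the effect of the vector, the hairpin and the selection cannot be told apart.

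Cells sense oxygen through prolyl hydroxylases of the EGLN family, which mark the α subunit of hypoxia-inducible factor for recognition by the VHL ubiquitin ligase and destruction. When oxygen is short the subunit is stable, pairs with ARNT and binds the short motif ACGTG or GCGTG near genes for glucose uptake, glycolysis, lactate export, blood vessel growth and collagen processing. Control is largely on the protein, so that the HIF1A mRNA is not a readout of the pathway, and many tumour cells run glycolysis at a high rate with oxygen present.

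Of 4 of these genes the promoter is shown, because they cover the presence, number and absence of that motif among the genes on which the results turn. Each is the 250 bases before 1 annotated transcription start, from RefSeq on GRCh38.p14, plus strand. Capitals mark ACGTG or GCGTG read on either strand. Where a gene had several annotated starts, only the first listed was read, which need not be the start used in these cells. CA9, a carbonic anhydrase and a classical HIF1 target, holds 1 copy on the reverse strand at chr9:35673678-35673927. ADM, the vasodilator peptide adrenomedullin, holds 1 at chr11:10304823-10305072. LDHA, lactate dehydrogenase A, holds 5 over both strands at chr11:18394313-18394562, of which 4 come from a pair of palindromes that read the same on both strands. HK1, a hexokinase, holds 0 in the window at chr10:69269750-69269999, and any other start of HK1 was not read.
CA9: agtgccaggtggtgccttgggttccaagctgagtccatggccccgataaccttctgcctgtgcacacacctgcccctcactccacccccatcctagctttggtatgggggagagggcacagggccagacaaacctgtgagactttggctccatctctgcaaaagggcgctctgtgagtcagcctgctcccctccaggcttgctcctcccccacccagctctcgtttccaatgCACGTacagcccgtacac
ADM: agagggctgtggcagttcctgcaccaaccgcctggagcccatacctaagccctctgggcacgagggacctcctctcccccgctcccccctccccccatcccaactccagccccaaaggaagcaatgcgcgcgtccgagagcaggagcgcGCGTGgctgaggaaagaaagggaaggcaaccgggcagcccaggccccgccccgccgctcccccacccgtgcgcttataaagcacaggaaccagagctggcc
LDHA: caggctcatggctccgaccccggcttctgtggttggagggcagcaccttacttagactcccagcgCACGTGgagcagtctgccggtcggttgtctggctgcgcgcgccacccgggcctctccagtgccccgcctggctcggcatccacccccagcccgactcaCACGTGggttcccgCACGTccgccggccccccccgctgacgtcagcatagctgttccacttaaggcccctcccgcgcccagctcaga
HK1: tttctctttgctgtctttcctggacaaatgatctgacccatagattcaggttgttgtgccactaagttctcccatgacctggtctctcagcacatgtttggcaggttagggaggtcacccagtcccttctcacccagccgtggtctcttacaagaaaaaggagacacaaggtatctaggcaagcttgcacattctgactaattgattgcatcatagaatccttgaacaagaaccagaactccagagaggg

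A promoter was matched for 31 of the 35 genes, and VEGFA, NDRG1, BNIP3L and SLC2A3 had none. At least 1 copy of either motif was present in 21 of the 31, or 67.7%, beside 43.2% of all 35114 promoters of this length. ACGTG was present in 14 of the 31 (45.2%, beside 18.5% of all promoters) and GCGTG in 11 (35.5%, beside 32.2%). A match is a description of the letters in this window and not a binding site. Every level below is the log2 of a probe's processed intensity after subtraction of the array median, so that 0 is the median probe of that array and a step of 1 is a doubling. Levels of different probes are not comparable, and only differences between samples of the same probe are given.

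Of the 34127 probes that were not controls, between 55.1% and 83.5% were well above background on an array, and 20100 features were tested. A feature was called at an unadjusted p under 0.005 between the cell lines, or 0.006 in the other comparisons, and a false discovery rate (Benjamini and Hochberg) below 10% over all 20100, in limma. RAD9A, the targeted gene, had 1 probe. Its level was 3.44, 3.48, 3.60, 3.25 and 3.46 in H1299 CTL and 3.32, 3.15, 3.24, 2.85 and 3.16 in H1299shRAD9 CTL. RAD9A was thus lower in the transfected cells (difference -0.30, limma adjusted p = 0.0854), and was not called. KRT18 (9.87 to 11.06) and VIM (10.37 to 11.83), markers of an epithelial-derived line with mesenchymal features, were well above background on all 50 arrays, while the lung epithelial marker NKX2-1 was so on 25, SFTPC on 48 and SFTPB on 3. The brightest probe of the leukocyte marker PTPRC was well above background on 50 arrays, as was 1 of its 4 dimmer probes, while the other 3 were so on 1, 0 and 0. The brightest probe of the endothelial marker PECAM1 was well above background on 2 arrays and that of the fibroblast marker COL1A1 on 8. The replicates are separate samples, and p-values measure the spread between these samples. The 5 arrays of a group limit the precision, and in a bulk sample fewer cells with a transcript and less transcript per cell cannot be told apart.

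In unirradiated cells, reduced RAD9 went with higher ADM and LDHA and with lower SLC2A3 and HK1. These 4 of the 31 genes were called, 2 in each direction, where 14.2% of all features were called. The median difference of the 31 genes was 0.21, beside 0.12 for all features, and 11 of the 31 had an unadjusted p under 0.05, beside 36% of all features. The share of genes called was therefore near the background of this comparison.

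ADM was 3.96, 3.61, 3.23, 3.41 and 3.58 in the 5 samples of H1299 CTL. In H1299shRAD9 CTL it was 3.95, 4.30, 4.68, 4.42 and 4.56. Replicate 1 was level in both cell lines and the other 4 transfected samples lay above every H1299 sample. The mean was 1.77-fold higher (difference 0.82, SE 0.17, n = 5 and 5, limma adjusted p = 0.0105), measured by a probe at chr11:10328780-10328839 of hg19.

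LDHA converts pyruvate to lactate at the end of glycolysis. Its level was 8.26, 7.87, 8.42, 8.35 and 8.32 in H1299 CTL and 8.73, 8.70, 8.64, 8.70 and 8.63 in H1299shRAD9 CTL, so that the groups did not overlap. The mean was 1.35-fold higher (difference 0.44, SE 0.12, limma adjusted p = 0.0265). The spread within H1299 CTL came mostly from replicate 2, the lowest, while the transfected samples stayed close together. Another probe under the name LDHA, placed by the array annotation on chromosome 9 and not at the gene, differed by 0.35.

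SLC2A3 encodes the high-affinity glucose transporter GLUT3. It was 1.15, 1.65, 1.51, 1.24 and 0.76 in H1299 CTL and 0.45, 0.47, 0.54, 0.73 and 0.67 in H1299shRAD9 CTL. Every transfected sample was below every H1299 sample, with a ratio of 0.619 (difference -0.69, SE 0.16, limma adjusted p = 0.0157). A second probe of SLC2A3 gave a difference of -0.76 (SE 0.13, limma adjusted p = 0.00478), and its groups did not overlap either.

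HK1 encodes the broadly expressed hexokinase that traps glucose in the cell as glucose 6-phosphate. It was 4.15, 3.99, 4.55, 4.31 and 4.52 in H1299 CTL and 3.99, 3.95, 2.65, 2.61 and 2.54 in H1299shRAD9 CTL. Replicates 1 and 2 of the transfected cells lay at the lower edge of the H1299 range, and the other 3 were far below it. The mean ratio of 0.448 (difference -1.16, SE 0.30, limma adjusted p = 0.024) therefore averages unlike samples.

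The cell lines' CTL arrays also differed in technical measures. No slide held CTL arrays of both lines, and the same was true of the DBP, DBN and BN arrays. For BP, 1 slide held an array of each line. Slide and cell line therefore cannot be told apart in CTL, DBP, DBN and BN, and hardly in BP. An index of the 5′ to 3′ signal balance of an array, defined further on, had a median of -0.12 in H1299shRAD9 CTL and 0.019 in H1299 CTL, and with that index as a covariate SLC2A3 was the 1 gene of the 31 called.

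**Figure D1:**
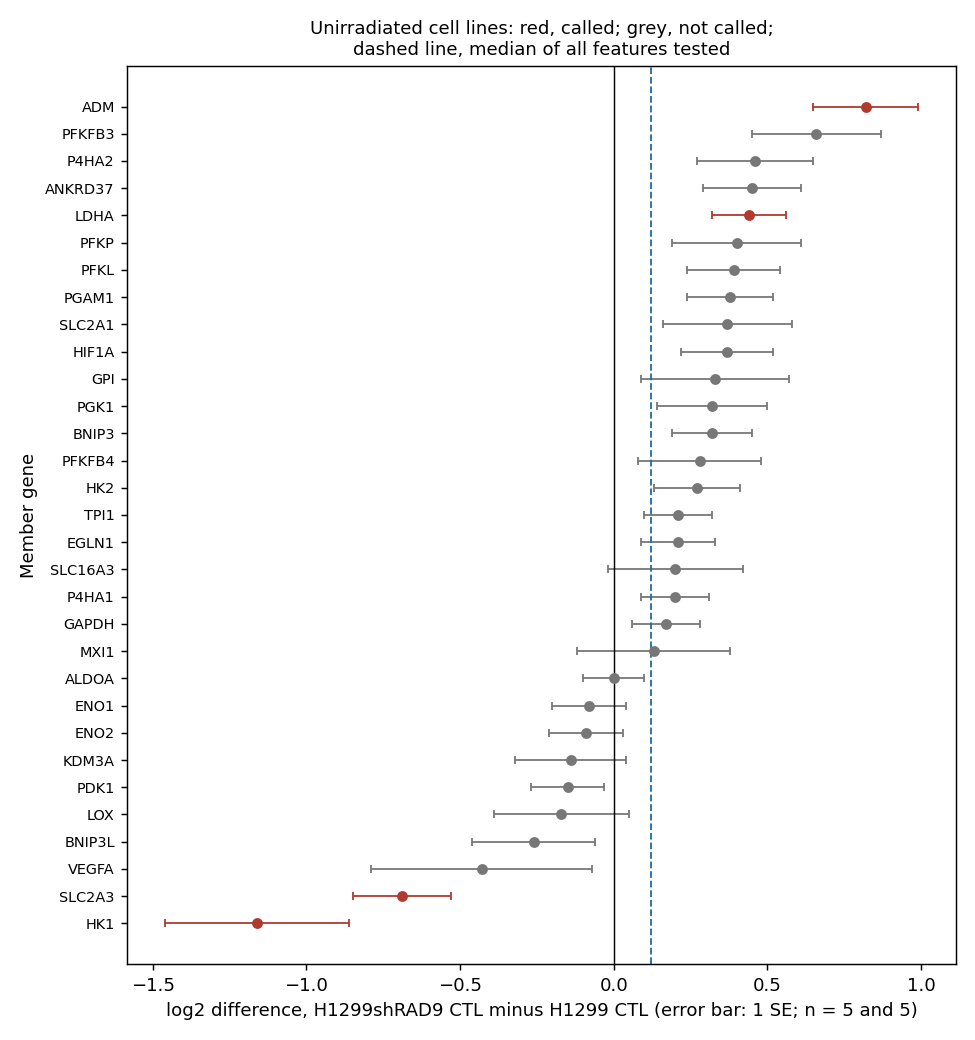
Log2 difference of the 31 genes between unirradiated H1299shRAD9 and H1299 (x axis) by gene (y axis), with bars of 1 SE and 5 arrays a group. ADM, LDHA, SLC2A3 and HK1, in red, were called, and the dashed line is the median of all features at 0.12.

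Of the genes that were not called, the largest differences were in PFKFB3 (0.66, SE 0.21, limma adjusted p = 0.0502), the kinase that makes the main allosteric activator of phosphofructokinase, and in P4HA2 (0.46, SE 0.19, limma adjusted p = 0.11), a collagen prolyl hydroxylase. VEGFA, the vascular growth factor, differed by -0.43 (SE 0.36, limma adjusted p = 0.412). By role, the phosphofructokinases PFKP and PFKL differed by 0.40 and 0.39, and PGAM1, GPI and PGK1, which act along the middle of the pathway, by 0.38, 0.33 and 0.32. ALDOA (0.00), ENO1 (-0.08) and ENO2 (-0.09) were closest to no difference among the enzymes. TPI1 (0.21) and GAPDH (0.17) lay between, and GAPDH was saturated on 3 arrays and TPI1 on 1. HK2, the inducible hexokinase, differed by 0.27, PFKFB4 by 0.28, and PDK1, a pyruvate dehydrogenase kinase, by -0.15. Among transporters the glucose carrier SLC2A1 (GLUT1) differed by 0.37 and the lactate exporter SLC16A3 (MCT4) by 0.20. HIF1A itself differed by 0.37, with -0.16 on a dimmer probe, and EGLN1, the main oxygen-sensing hydroxylase, by 0.21. The mitophagy receptors BNIP3 and BNIP3L differed by 0.32 and -0.26, and the other probes of BNIP3L, at -0.58 and -0.84, were called although the brightest was not. P4HA1, a collagen prolyl hydroxylase, differed by 0.20, LOX, which cross-links collagen, by -0.17, the histone demethylase KDM3A by -0.14, ANKRD37, a small ankyrin repeat gene, by 0.45, and MXI1, a MAX-binding antagonist of MYC, by 0.13. Dimmer probes of MXI1 (-0.67) and PGAM1 (-0.08), not called, had the opposite sign to the brightest.

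Across the 4 exposures the cell lines were compared in the same way, on other arrays, and ADM was also called in DBP and BP. Deviations of same-numbered H1299shRAD9 arrays from their group means correlated with those of CTL at 0.20 to 0.74. The comparisons of the cell lines are therefore not independent of one another. In DBP, 3 of the 31 genes were called, where 5.98% of all features were, and the median difference was 0.10 beside 0.13. In BP, 3 were called beside 7.74% of all features, with a median of 0.31 beside 0.15. Between the DBN groups none was called by limma, beside 4.44%, and none by the random-variance test (median 0.14 beside 0.16). There 2 genes had an unadjusted p under 0.05, beside 20.9% of all features. In BN 1 was called, beside 8.48%, with a median of 0.23 beside 0.16.

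ADM was 3.26, 3.38, 3.09, 3.60 and 3.17 in H1299 DBP and 3.45, 4.34, 4.24, 4.66 and 4.42 in H1299shRAD9 DBP, where only transfected replicate 1 fell within the H1299 range. The difference was 0.92 (SE 0.21, limma adjusted p = 0.0398), and in BP it was 0.97 (SE 0.26, limma adjusted p = 0.0478). In DBN and BN the differences of 0.47 (SE 0.37) and 0.54 (SE 0.19) were not called.

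PFKFB3 was called in DBP, with a difference of 0.69 (SE 0.19, limma adjusted p = 0.0715) and no overlap. Its levels were 2.09, 2.39, 2.47, 2.34 and 2.34 in H1299 and 2.48, 2.69, 3.38, 3.21 and 3.32 in H1299shRAD9. As with HK1, transfected replicates 1 and 2 lay nearest to H1299. HK1 was also called in DBP (-1.11, SE 0.27, limma adjusted p = 0.0502) and in no other irradiated or bystander group, although its difference there was still -0.98 to -1.13.

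P4HA2 and SLC2A1 were called in BP alone. P4HA2 was 4.05, 3.87, 4.41, 4.52 and 4.01 in H1299 BP and 4.81, 4.72, 4.83, 5.01 and 5.20 in H1299shRAD9 BP, with no overlap (difference 0.74, SE 0.16, limma adjusted p = 0.0263). A dimmer probe of P4HA2 had differed by -0.25 in the CTL groups, against 0.46 for the brighter, so that the probes of this gene did not run together between the cell lines. SLC2A1 was 5.56, 5.07, 5.16, 5.52 and 5.12 in H1299 BP and 6.36, 6.34, 5.79, 5.65 and 5.88 in H1299shRAD9 BP, again with no overlap (difference 0.72, SE 0.18, limma adjusted p = 0.0415). In BN the gene called was SLC2A3 (-0.76, SE 0.22, limma adjusted p = 0.0559), and on this probe its difference lay between -0.76 and -0.45 in all 5 comparisons. The second SLC2A3 probe was also called in BN (-0.73, limma adjusted p = 0.0445). It differed by only -0.10 in DBP, -0.30 in BP and -0.42 in DBN, none of them called.

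Much of the spread of these genes in H1299shRAD9 went with the replicate number and not with the exposure. Over the 25 H1299shRAD9 arrays, the share of a gene's variance that went with the replicate number had a median of 49.2% for the 31 genes, beside 36.6% for all features. That share exceeded 80% for 9 of the 31 genes, or 29%, beside 8.91% of all features. In H1299 the median was 33.3% beside 32.9%, and the share exceeded 80% for 0 of the 31 genes, beside 0.844% of all features. These shares are a description of 25 arrays a cell line and carry no test.

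The 9 genes were PFKP (97%), HK1 (95.6%), PGK1 (93%), MXI1 (92.2%), SLC16A3 (91.6%), LOX (87%), GPI (85%), PGAM1 (83.5%) and PFKFB3 (80.9%). By comparison 0.482% of the variance of HK1 and 0.794% of that of PFKP went with the exposure. Of the 9 genes 7 are enzymes or transporters of glycolysis, which also make up most of the 31 genes. Either motif is held in the promoter window by 4 of the 9, beside 21 of the 31 genes with a matched promoter.

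PFKP, the platelet-type phosphofructokinase, was 7.03, 7.07, 8.0, 7.97 and 7.92 in H1299shRAD9 CTL. In DBP it was 6.99, 7.19, 7.91, 7.98 and 8.01, and in BP 7.20, 7.25, 8.04, 7.95 and 8.02. Replicates 1 and 2 were low and replicates 3 to 5 high in each of the 5 groups, from 6.99 to 7.25 against 7.83 to 8.04, with no value between. The 25 H1299 values ran from 6.53 to 7.97 and did not divide in this way.

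PGK1, which makes the first ATP of glycolysis, ran from 8.20 to 8.52 in replicates 1 and 2 and from 8.91 to 9.22 in replicates 3 to 5 of H1299shRAD9. GPI (9.13 to 9.72 against 9.79 to 10.51) and PGAM1 (7.65 to 8.33 against 8.47 to 8.79) were divided the same way, and so was MXI1 (1.82 to 2.29 against 2.92 to 3.67). HK1 ran the other way, from 3.74 to 4.33 in replicates 1 and 2 and from 2.39 to 2.94 in the other 3. SLC16A3 (9.25 to 9.82 against 7.85 to 8.72) and LOX (0.13 to 0.61 against -0.56 to -0.13) were also higher in replicates 1 and 2. PFKFB3 (1.81 to 2.69 against 2.42 to 3.54) was the one of the 9 whose ranges overlapped. The step was thus not in 1 direction for these genes, nor was it seen in every enzyme: PFKL (7.43 to 8.14 against 7.38 to 8.20), ALDOA (8.09 to 8.58 against 8.21 to 8.63), TPI1 (9.63 to 10.20 against 9.64 to 10.31) and GAPDH (10.57 to 10.98 against 10.59 to 11.09) overlapped widely.

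**Figure D2:**
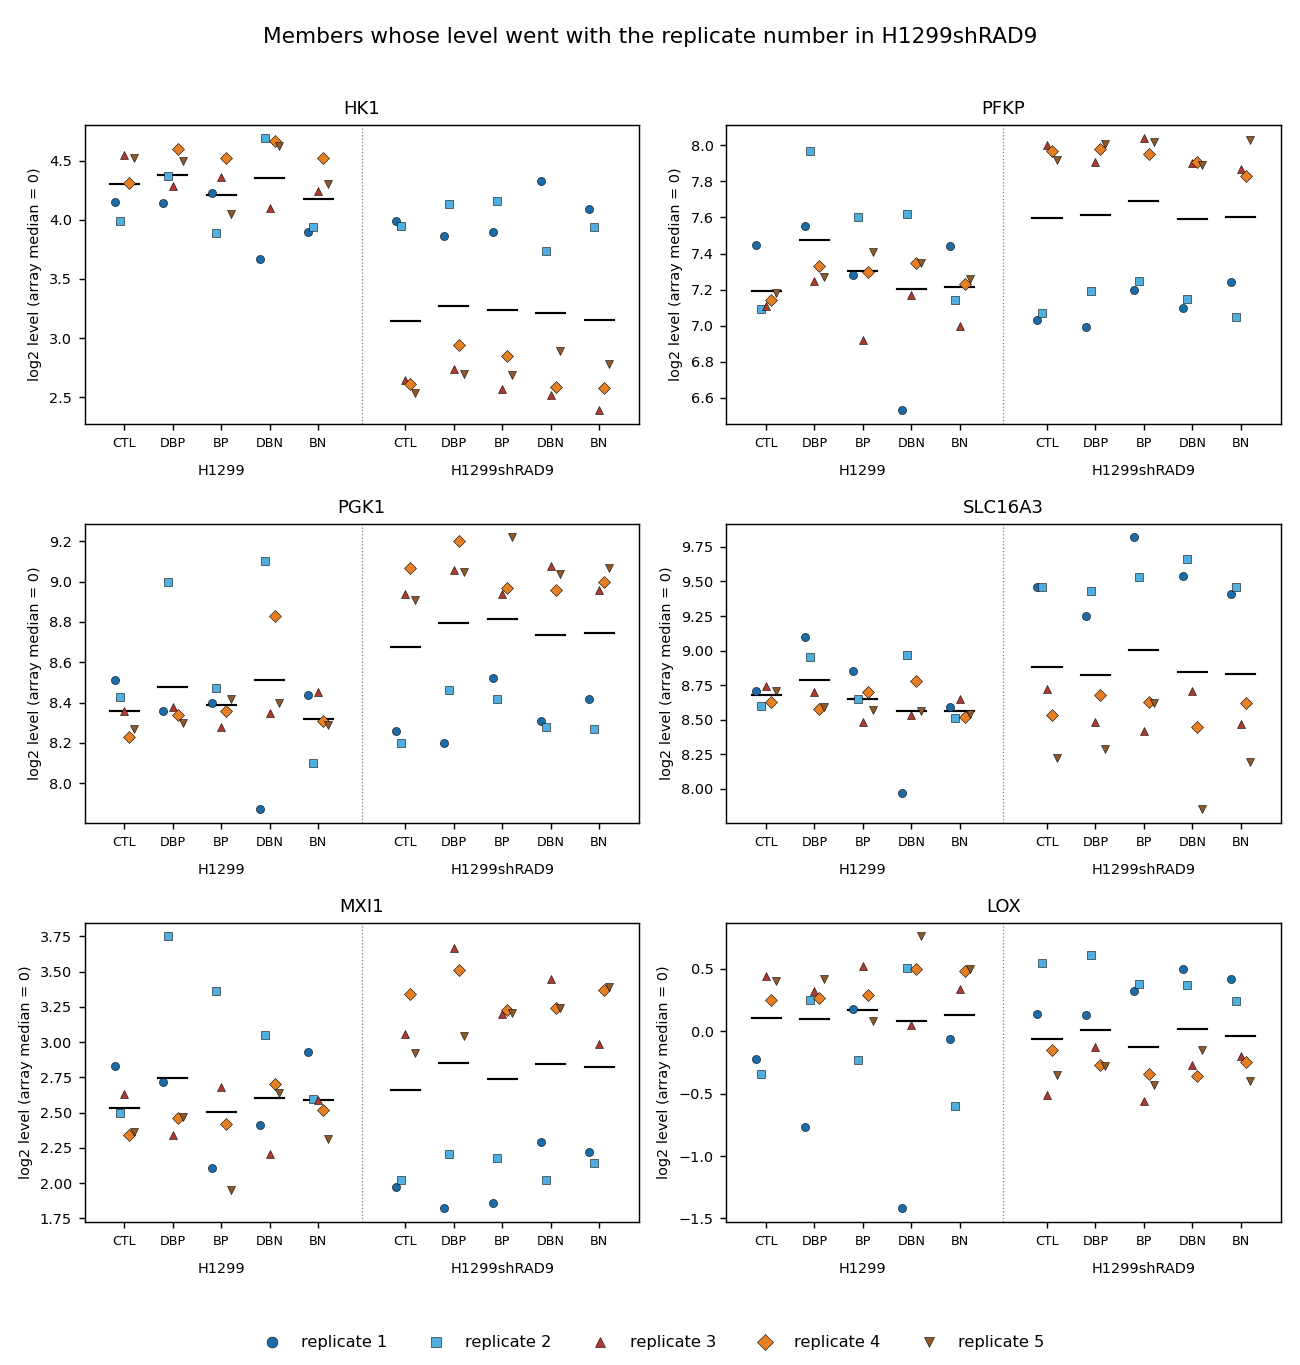
Log2 level (y axis, array median = 0) of HK1, PFKP, PGK1, SLC16A3, MXI1 and LOX in the 10 groups (x axis), with 1 point an array, shaped by replicate number, and a bar at the mean. In H1299shRAD9, replicates 1 and 2 stand apart from replicates 3 to 5 in every group, and in H1299 they do not.

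The division was read from the values, and the labels do not say what replicates 1 and 2 share. A single slide held H1299shRAD9 arrays from both sides of the division, namely DBN and BN of replicate 2 and BP and DBP of replicate 3. HK1 was 3.74, 3.94, 2.57 and 2.74 in these arrays, so that arrays of 1 slide fell on both sides. Every other slide held H1299shRAD9 arrays from only 1 side, so that slide and division otherwise went together. The part of the slide in the division was not tested. RAD9A overlapped (3.15 to 3.75 in replicates 1 and 2 against 2.85 to 3.33), and 50.3% of its variance in H1299shRAD9 went with the replicate number. Which of the transfectants gave each sample was not tested.

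**Figure D3:**
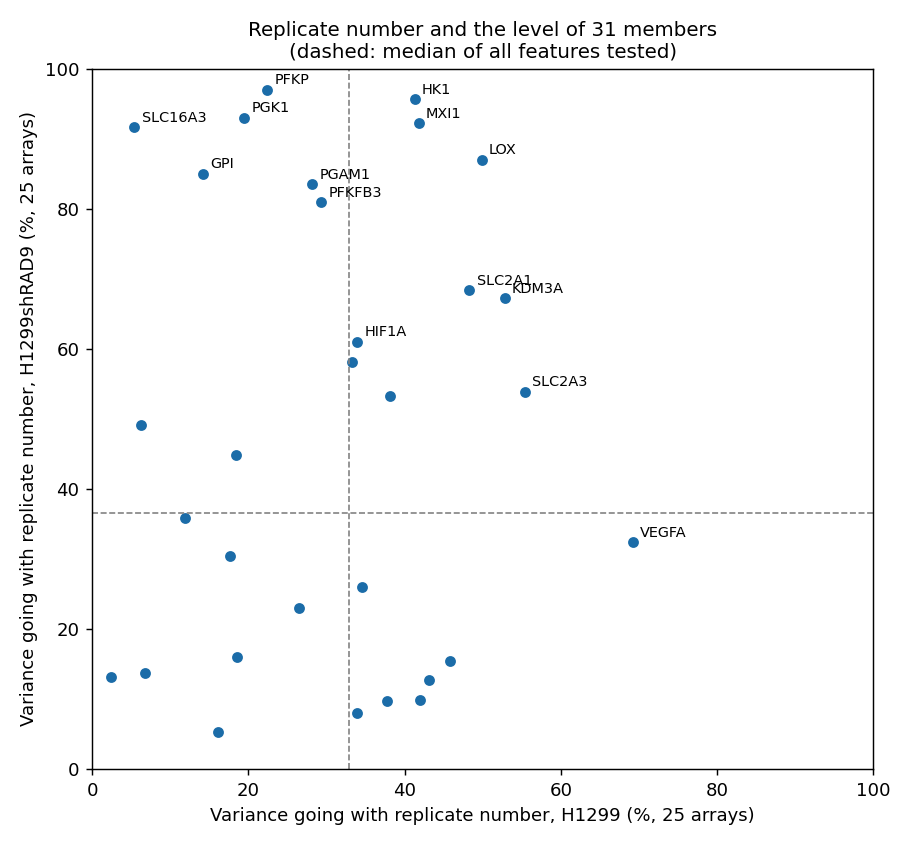
Share of each gene's variance that went with the replicate number over 25 arrays, in percent, in H1299 (x axis) and H1299shRAD9 (y axis), with 1 point for each of the 31 genes. Dashed lines are the medians of all features (32.9% and 36.6%), and 9 genes lie above 80% in H1299shRAD9 with none beyond 80% in H1299.

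After irradiation few of the genes passed the test, and VEGFA in the directly irradiated H1299shRAD9 cells of DBN dishes was the one call. The 4 irradiated and bystander groups of a cell line are compared with the same 5 CTL samples, so these comparisons are not independent. In H1299shRAD9, DBP had 0 of the 31 genes called by limma (1.54% of all features were), with 2 at an unadjusted p under 0.05, and BP had 0 (1.37% of all features), with 1. DBN had 1 (2.75% of all features) and BN 0 (0.0299%), with 3 and 4 genes at an unadjusted p under 0.05. Of all features, 14.6%, 10.4%, 14.5% and 13.4% had an unadjusted p under 0.05 in DBP, BP, DBN and BN. The medians of the 31 genes were 0.04, 0.08, -0.01 and 0.01, beside 0.01, 0.01, -0.02 and -0.01 for all features. The random-variance test gave the same counts of 0, 0, 1 and 0.

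VEGFA was 1.70, 1.76, 1.79, 1.79 and 1.60 in H1299shRAD9 CTL and 2.10, 2.04, 2.58, 2.17 and 2.67 in DBN. All 5 DBN samples lay above all CTL samples, and each was above the CTL sample of its number. The mean was 1.49-fold higher (difference 0.58, SE 0.13, limma adjusted p = 0.0971), and fits without the replicate block, or without any 1 replicate, did not call it. In DBP the level was 0.99, 2.19, 3.05, 2.73 and 1.93, a wide group that held values on both sides of CTL. In BN the difference was 0.40 (SE 0.13, limma adjusted p = 0.27).

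The brighter VEGFA probe lies at chr6:43753511-43753570 of hg19 and a dimmer one at chr6:43746223-43746634. The dimmer probe was 0.20, 0.24, 0.66, 0.56 and 0.67 in H1299shRAD9 CTL and 1.23, 1.15, 1.64, 1.65 and 1.15 in DBN, with no overlap. It rose by 0.90 in DBN (SE 0.11, limma adjusted p = 0.0294), 0.75 in BP (SE 0.10, limma adjusted p = 0.0356) and 0.67 in DBP (SE 0.13, limma adjusted p = 0.0792), and its difference of 0.68 in BN was not called (limma adjusted p = 0.19). In H1299 the same probe differed by 0.26, -0.09, -0.01 and 0.32 in DBP, BP, DBN and BN, none of them called, and the interaction of cell line and exposure did not pass either (smallest limma adjusted p = 0.347).

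**Figure D4:**
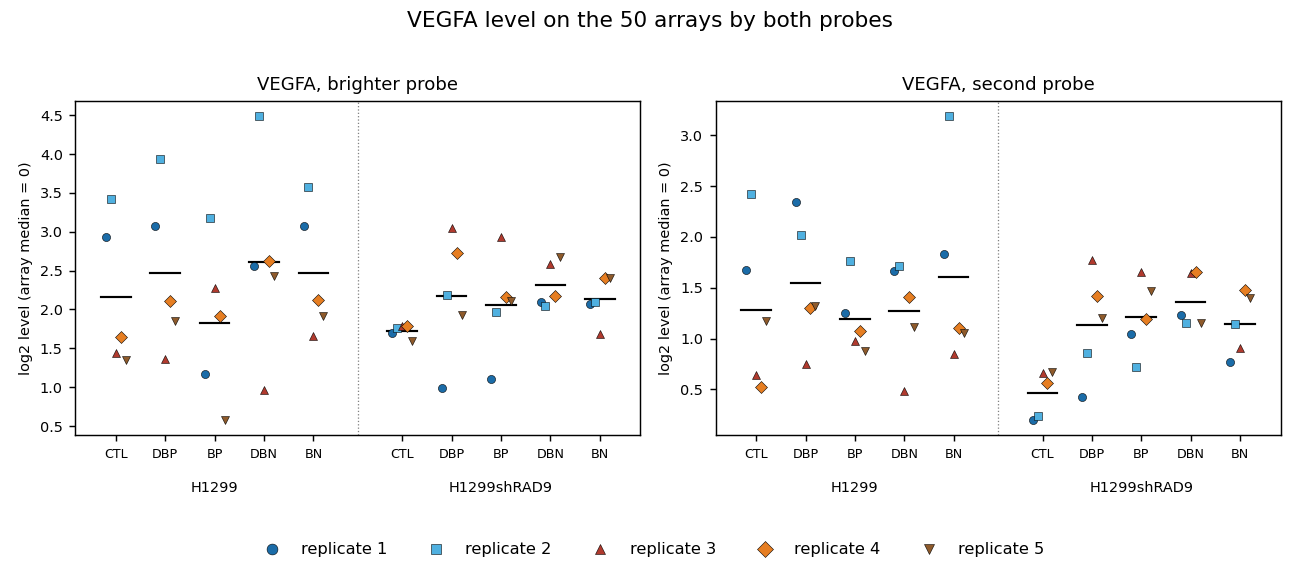
Log2 level (y axis, array median = 0) of the brighter and the dimmer VEGFA probe in the 10 groups (x axis), with 1 point an array, shaped by replicate number, and a bar at the mean. Both probes are low and tight in H1299shRAD9 CTL, at 1.60 to 1.79 and 0.20 to 0.67, and higher in DBN, and H1299 is spread by replicate number.

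Of the genes that were not called after direct irradiation of H1299shRAD9, PFKL, the liver-type phosphofructokinase, was the lowest in DBP (-0.32, SE 0.09, limma adjusted p = 0.174) and ADM in DBN (-0.24, SE 0.10, limma adjusted p = 0.326). ADM (-0.16) and GPI (-0.13) were next in DBP, and PFKL (-0.23) and GPI (-0.20) in DBN. ADM was 3.70, 3.92, 4.45, 4.49 and 4.16 in DBN, below the CTL sample of the same number in 4 of 5 pairs. At the other end, VEGFA (0.44, SE 0.25), PDK1 (0.24, SE 0.09) and PFKFB4 (0.22, SE 0.16) led in DBP, and after VEGFA came BNIP3L (0.34, SE 0.24) and PFKFB4 (0.28, SE 0.12) in DBN.

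Dimmer probes of MXI1 and P4HA2 moved where the brightest did not. Those tested of HIF1A, BNIP3L, LDHA, PFKP, PGAM1 and SLC2A3 were not called in any comparison of H1299shRAD9 with CTL. The dimmer MXI1 probe was 0.54, 0.42, 1.95, 1.66 and 1.89 in H1299shRAD9 CTL and 1.21, 1.54, 2.73, 3.02 and 2.55 in DBN. It was higher in 5 of 5 pairs, while the groups overlapped through replicates 1 and 2. It rose by 0.92 in DBN (SE 0.13, limma adjusted p = 0.0382) and 0.86 in BP (SE 0.11, limma adjusted p = 0.0356), beside 0.19 and 0.08 for the brightest probe, which were not called. The dimmer P4HA2 probe rose by 0.41 in DBN (limma adjusted p = 0.0781) and 0.36 in DBP (limma adjusted p = 0.0952).

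The balance of 5′ and 3′ signal, which varies with RNA quality, moved with these comparisons. For 3370 genes with several probes, the level of the probe nearest the 5′ end less that of the probe nearest the 3′ end was centred over the arrays, and its median on an array served as an index. The index had a median of -0.12 in H1299shRAD9 CTL (-0.158 to -0.048) against -0.001 in DBN (-0.029 to 0.119) and 0.005 in BN (-0.023 to 0.134). In DBP it was -0.012 (-0.065 to 0.025) and in BP -0.013 (-0.066 to 0.028). DBN and BN thus did not overlap CTL in the index, and DBP and BP did so only at the edge. Index and exposure can therefore hardly be told apart, and a loss of calls with the index as a covariate decides nothing. With this covariate, added after the values were seen, 0, 1, 0 and 2 of all features were called in DBP, BP, DBN and BN. VEGFA in DBN was -0.34 on the brighter probe (SE 0.36, limma adjusted p = 0.768) and 1.44 on the dimmer (SE 0.36, limma adjusted p = 0.608). Without the covariate these SEs were 0.13 and 0.11. In DBP, BP and BN the same covariate gave 0.20, -0.01 and 0.82 on the brighter VEGFA probe and 0.47, 0.72 and 0.94 on the dimmer, and the dimmer P4HA2 probe was 0.13 in DBN (limma adjusted p = 0.896) and 0.29 in DBP (limma adjusted p = 0.999), none of them called. The dimmer MXI1 probe, at 1.07 in DBN and 0.99 in BP, was not called with it either. The dimmer probes of VEGFA, MXI1 and P4HA2 each lie 5′ of the brightest, and the index was lower in CTL. Dimmer probes of HIF1A, PFKP, PGAM1 and SLC2A3 also lie 5′ of the brightest and were not called against CTL in H1299shRAD9. VEGFA is also known to respond to amino acid stress. CHAC1, a gene of that response, was 2.25, 2.16, 3.05, 2.90 and 2.74 in H1299shRAD9 CTL and 4.00, 2.38, 4.65, 4.16 and 5.53 in DBN. Over the H1299shRAD9 arrays 27.1% of the variance of CHAC1 went with the exposure. The share was lower for other genes of that response: DDIT3 (15.3%), PHGDH (14.3%), SESN2 (13.3%), TRIB3 (10.7%) and PSAT1 (2.41%). The part of the index or of amino acid stress in the VEGFA difference was not tested.

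In H1299, 69.2% of the variance of VEGFA went with the replicate number, the highest share among the 31 genes in that cell line. VEGFA was 2.93 and 3.42 in CTL replicates 1 and 2 and 1.44, 1.65 and 1.35 in replicates 3 to 5. The same arrays held high CHAC1 (5.85 and 7.04 against 2.50, 2.37 and 2.83) and high ASNS, asparagine synthetase (10.30 and 10.30 against 7.71, 7.82 and 7.89). The part of that response in the VEGFA level was not tested.

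None of the 31 genes was called by limma in H1299 after exposure, in comparisons that share the H1299 CTL samples. DBP against CTL called 0.0348% of all features, DBN against CTL 0.00995%, and both bystander groups 0%. In the order DBP, BP, DBN and BN, 0, 1, 1 and 3 of the 31 genes had an unadjusted p under 0.05, beside 5.85%, 5.56%, 3% and 3.23% of all features. The random-variance test called none of the 31 either. The medians were 0.10, -0.02, 0.06 and 0.02, beside 0.03, -0.04, -0.06 and -0.03 for all features. DBN set against DBP, unpaired, called none of the 31 genes by limma or by the random-variance test in either cell line, with 0% of all features called. In these fits 0 of the 31 had an unadjusted p under 0.05, beside 0.498% of all features in H1299shRAD9 and 0.582% in H1299. The 0 is therefore near the share of all features and says nothing particular about these genes. With the replicate number as a block limma also called 0 of the 31 in either line. The differences of DBN from DBP ran from -0.24 to 0.17 in H1299shRAD9 (median -0.03, beside -0.02 for all features) and from -0.35 to 0.71 in H1299 (median -0.01, beside -0.09). The interaction of cell line and exposure asks whether the response to DBP, BP, DBN or BN differed between the cell lines. It also called none by either test (0% of all features in each), with medians of -0.04, 0.10, -0.06 and 0.01. In each, 0 of the 31 had an unadjusted p under 0.05, beside 7.9%, 6.35%, 6.98% and 6.18% of all features.

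The largest difference in H1299 was in ANKRD37, at 1.04 in DBN against CTL (SE 0.37, limma adjusted p = 1). It was 0.18, 0.22, 0.82, 0.12 and -0.03 in CTL and 1.75, 0.63, 0.73, 3.03 and 0.36 in DBN, so that replicates 4 and 1 carried the difference and the groups overlapped. H1299 DBN replicate 4 was the highest of its group for 14 of the 31 genes, beside 8.92% of all features. In that array ADM was 4.85 where the other 4 were 4.11, 3.15, 2.42 and 3.85, SLC2A3 was 2.05 where the others were 0.96 to 1.49, and PFKFB4 was 2.83. CA9, well above background on only 3 of the 50 arrays, was so in this one at -1.42.

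In H1299 DBP the furthest genes were ALDOA (0.35, SE 0.17), ANKRD37 (0.33, SE 0.16) and VEGFA (0.31, SE 0.14) above CTL and ADM (-0.26, SE 0.15), SLC2A3 (-0.09) and BNIP3L (-0.06) below, all with a limma adjusted p of 0.734 or more. In H1299 DBN, VEGFA (0.46, SE 0.28) and PFKFB4 (0.42, SE 0.26) followed ANKRD37, and BNIP3L (-0.41, SE 0.24), PFKL (-0.14) and HIF1A (-0.13) lay lowest. Between DBN and DBP the same array of H1299 entered, and the furthest differences were in ANKRD37 (0.71, SE 0.44), ADM (0.37, SE 0.37) and SLC2A3 (0.21, SE 0.25). BNIP3L (-0.35, limma adjusted p = 0.999), GPI (-0.31) and PFKP (-0.27) were lowest. The dimmer BNIP3L probes had the opposite sign, at 0.05 and 0.12 there and at 0.15 and 0.19 in H1299 DBN against CTL. In H1299shRAD9 the corresponding genes were BNIP3L (0.17), VEGFA (0.13) and PFKL (0.08), and PFKFB3 (-0.24), HK2 (-0.18) and KDM3A (-0.13). The dimmer BNIP3L probes were at -0.07 and -0.05 in that comparison.

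In H1299shRAD9, DBP replicate 4 was the highest of its group for 12 of the 31 genes, beside 20.6% of all features. BP replicate 5 was so for 15, but also for 32% of all features, and is described for a few genes picked by their values. In BP replicate 5 ADM was 4.89 where the other 4 were 3.77, 3.99, 3.74 and 3.98, ANKRD37 was 2.42 where they were 0.46 to 1.22, and PFKFB4 was 2.82. CA9 was not well above background in that array. H1299 DBN replicate 1 was the lowest of its group for 21 of the 31 genes and H1299shRAD9 DBP replicate 1 for 20, but so they were for 46.9% and 48.2% of all features.

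**Figure D5:**
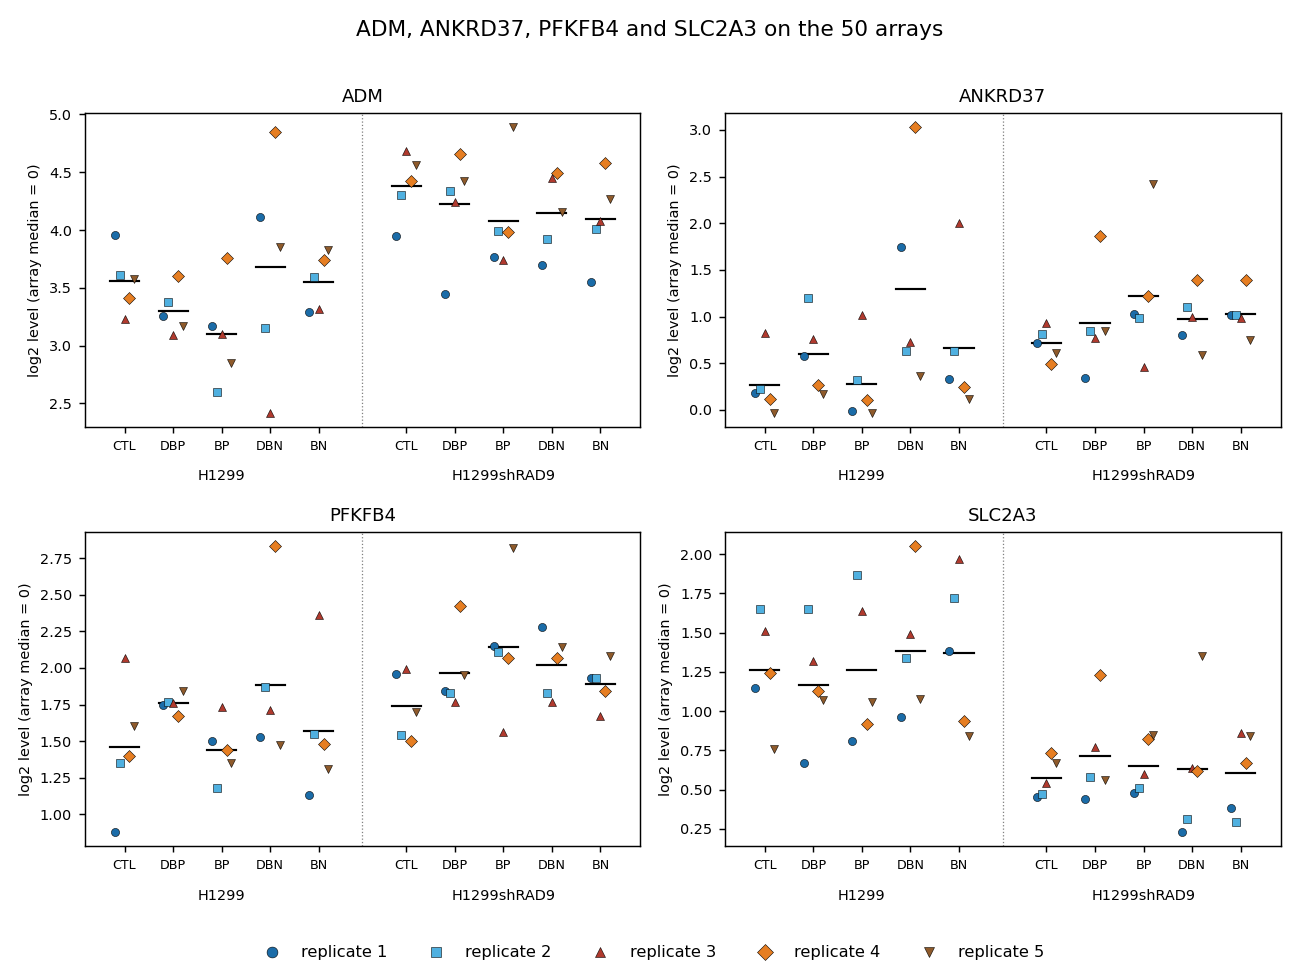
Log2 level (y axis, array median = 0) of ADM, ANKRD37, PFKFB4 and SLC2A3 in the 10 groups (x axis), with 1 point an array, shaped by replicate number, and a bar at the mean. H1299 DBN replicate 4 tops its group in each panel (ADM 4.85, ANKRD37 3.03, PFKFB4 2.83, SLC2A3 2.05), and H1299shRAD9 BP replicate 5 stands out for ADM, ANKRD37 and PFKFB4.

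The 4 genes that did not pass the filter were not well above background on most arrays. CA9 was well above background on 3 of the 50 arrays, 2 of them H1299 DBN (replicates 1 and 4) and 1 H1299 DBP (replicate 2). NDRG1, a differentiation and stress gene, was so on 5, ALDOC, the brain-type aldolase, on 7, and EGLN3, a hydroxylase that HIF1 itself induces, on 2. No fold change is given for them.

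Of 58 further names linked to oxygen sensing and sugar metabolism, 55 were on the array and 51 passed the filter. Between the unirradiated cell lines 12 of these 51 were called, 8 higher and 4 lower, beside the 14.2% of all features, with a median of 0.12 that equalled that of all features. In DBP, BP, DBN and BN the counts were 5, 8, 2 and 7, beside 5.98%, 7.74%, 4.44% and 8.48% of all features. None of the 51 was called by limma in a comparison with CTL, of DBN with DBP, or in an interaction.

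EPAS1, which encodes the HIF2 α subunit, was called in all 5 comparisons of the cell lines, with differences from -2.28 to -1.90. In CTL it was 0.43, 0.69, 0.33, 0.24 and 0.04 in H1299 and -1.31, -0.71, -2.17, -1.77 and -1.78 in H1299shRAD9, so that no sample overlapped (limma difference -1.90, SE 0.24, limma adjusted p = 0.000994). The probe was well above background on 41 of the 50 arrays, and the other 9 were all H1299shRAD9 (2 in CTL, 3 in BP, 3 in DBP and 1 in BN), so that the level there is uncertain and no fold is given. PDK3, a pyruvate dehydrogenase kinase, was likewise called in all 5 (-2.05 to -1.83). It was 0.43, 0.35, 1.23, 1.03 and 0.96 in H1299 CTL and 0.01, -0.08, -1.93, -1.34 and -1.83 in H1299shRAD9 CTL. PDK3 was not well above background in 2 BP and 2 DBP arrays of H1299shRAD9. EPAS1 and PDK3 were both nearest to H1299 in replicates 1 and 2, as HK1 was.

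Other calls of this wider list were not found in all comparisons. VHL, the recognition subunit of the ubiquitin ligase, was called in 2 (0.74 and 0.99), the coactivator CREBBP in 3 (0.63 to 0.79), and JMJD6, an oxygen-dependent hydroxylase, in 3 (0.58 to 0.88). ANGPTL4, a secreted inhibitor of lipoprotein lipase, was called in 3 (1.05 to 1.31). HKDC1, a hexokinase relative, was called in 2 (1.72 in DBP and 2.34 in CTL), with 2 of the 5 H1299 CTL arrays, at -3.93 and -3.05, and 1 H1299shRAD9 DBP array not well above background. Between the unirradiated lines DDIT4, an inhibitor of mTORC1 signalling, was lower (-1.85), and TFRC, the transferrin receptor, was higher (1.43).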

How the data were processed

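Cy3-labelled RNA of 50 samples was hybridized to 1-colour Agilent arrays. Per the file headers, Agilent Feature Extraction 11.5.1.1 produced the deposited processed intensity values, which are background-subtracted and not normalized between arrays. The authors also deposited log2 values of 9502 features, background corrected and median normalized, which served as an alternative. Here these intensities were put on a log2 scale, the array median was subtracted, and spots of a probe averaged without those marked as outliers. Features not well above background on 25% or more of the arrays were left out. limma 3.58.1 in R 4.3.3 (lmFit, eBayes) compared groups, in comparisons with CTL with the replicate number as a block, because the study's methods name paired samples. Deviations of same-numbered arrays from their group means correlated at -0.18 to 0.74 in these comparisons, and 22 of 40 arrays correlated best with their own number. Same-numbered DBN and DBP arrays correlated at 0.26 to 0.61. The cell lines, and DBN and DBP, were compared unpaired, the replicate block being an alternative, and the interaction with cell line and replicate as a block. Genes named with a test are all that were called, and the 3 largest rises and falls of a comparison. Probes other than the brightest and the arrays described were chosen after their values were seen. The genes and lists were chosen with earlier results of these data known. Missing values stayed out of the fits. Code was tested on simulated data. Array positions are hg19 as deposited. Some genes of the wider list are not reported here.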

Additional observations from a re-analysis of the deposited data

Results flagged for a closer look

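In each of 310 sets of 5 arrays (31 genes in 10 groups), the distance of the highest or lowest array from its neighbour was divided by the range of the set. It exceeded 0.71, Dixon's limit for 5 samples, in 23 sets, or 7.42%, and chance gives about 1 in 20. Their part in any result was not tested.

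Of the H1299 arrays, the replicate that stood apart was highest for ANKRD37 in BN replicate 3 (2.0), PGK1 (9.0), KDM3A (3.16) and MXI1 (3.75) in DBP replicate 2, PFKP (7.45) and SLC2A1 (6.48) in CTL replicate 1, SLC2A1 (6.35) in DBP replicate 1 and GAPDH (10.74) in BN replicate 3. It was lowest for HIF1A (4.25) and GPI (8.92) in BN replicate 2, LDHA (7.81) and LOX (-0.77) in DBP replicate 1, ENO1 (8.0) and PGAM1 (7.18) in DBN replicate 1 and GPI (9.01) in CTL replicate 2. The MXI1 value of 3.75 compares with 2.34 to 2.72 in the other 4 DBP arrays, and the KDM3A value of 3.16 with 1.78 to 2.02.

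Of the H1299shRAD9 arrays, the one apart was highest for ADM in BP replicate 5 (4.89), ENO2 (3.54) in CTL replicate 3, KDM3A (2.51) in CTL replicate 4, PFKFB4 (2.42) in DBP replicate 4, EGLN1 (3.47) in DBP replicate 5 and P4HA1 (3.48) in DBN replicate 3. It was lowest for HK2 (4.10) in DBP replicate 1 and P4HA2 (4.11) in BN replicate 3. The other 4 BP arrays had ADM between 3.74 and 3.99.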

How the results depend on the processing

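Counts are of the 31 genes called. Between the unirradiated lines 4 became 2 with the replicate block added and 1 with the 5′ to 3′ index as a covariate, and between the DBP groups 3 became 1 after normexp background correction. Between the BP groups 3 became 6 in one fit of all 10 groups and 6 with the index as a covariate. Between the DBN groups 0 became 2 at the 75th percentile, 2 with the authors' processed values, 2 in one fit, 1 after quantile normalization, 1 after normexp and 1 with the replicate block added. Between the BN groups 1 became 3 at the 75th percentile, 2 after quantile normalization, 2 with the authors' values, 2 in one fit, and 0 after normexp, with probes well above background in either group, with a 1.3-fold criterion or with the index as a covariate. Without replicates 1 and 2, left out after several of these genes were seen to differ there, so that the counts support nothing, the 5 counts were 8, 10, 5, 3 and 8, and without replicates 3 to 5 they fell to 0 in DBP and BP and were 3 in BN. Leaving out 1 replicate at a time gave 2 to 4 in CTL (2 without replicate 2, 4 or 5), 0 to 3 in DBP (0 without 3, 4 or 5), 0 to 3 in BP (0 without 5), 0 to 1 in DBN (1 without 1 or 5) and 0 to 2 in BN (2 without 1, 2 or 3, and 0 without 4).

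In H1299shRAD9 DBN against CTL, 1 became 2 with the mean of a gene's features, and 0 with the authors' values, in one fit, with the slide as a random or fixed block, with probes well above background in either group, without the replicate block, with the index as a covariate, and without any 1 replicate (0 to 0). With the slide as a fixed block the count was 2 in H1299shRAD9 BP against CTL, 1 in H1299 DBN against CTL and 1 in H1299shRAD9 DBN against DBP. No other call in the comparisons with CTL changed without the replicate block. The cause of these changes was not tested.

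Signs turned as follows. VEGFA between unirradiated lines was 0.25 without replicates 1 and 2, and -0.34 in H1299shRAD9 DBN with the index as a covariate. In H1299shRAD9 DBN against DBP, VEGFA was -0.12 and -1.01 with the slide as a random and a fixed block and -0.11 to 0.31 without 1 replicate, and BNIP3L was -0.01 to 0.35 so. In H1299shRAD9 DBP against CTL, ADM was 0.05 and GPI 0.12 with the slide fixed, and 0.07 and 0.25 with the index, and PFKL in DBN was 0.11 with the index. In H1299 DBP against CTL, BNIP3L was 0.04 as a mean of features, 0.06 and 0.18 without replicate 3 and 2 and 0.06 with the index, and SLC2A3 was -0.19 to 0 without 1 replicate. In H1299 DBN against CTL, PFKL was 0.02 and 0.44 with the slide as a random and a fixed block and -0.38 to 0.10 without 1 replicate. In H1299 DBN against DBP, ADM was -0.18 and PFKP 0 with the slide fixed. The slide could not be fitted as a fixed block between cell lines, nor as a random one in DBP, BP, DBN and BN. Of 12 called results, 130 of 218 values under the alternatives kept their side of the threshold, 87 did not and 1 turned, and of 38 not called, 641 of 667 stayed so with their sign.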
